A study of Rattus norvegicus with 24 samples.

Results

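The genes described here were 8 neurotrophic factors and receptors, Bdnf, Ntf3, Ntrk2, Ntrk3, Ngfr, Gdnf, Gfra1 and Ret, taken by gene symbol from the 32545 genes of an RNA-seq table of the rat nucleus accumbens (NAc). All 8 had a value in each of the 24 libraries. The rats were adult male Sprague Dawley, 8 weeks old on arrival, and each of 6 groups held 4 libraries. In the injection experiment, rats received 5 intraperitoneal injections of LPS, a bacterial cell wall component that activates the innate immune system, at 250 µg/kg, or of saline, over 2 weeks. After a pause, which the labels give as 1 week and the methods of the study as shorter, they received heroin or saline by the same route for 5 days, with heroin rising from 1 to 5 mg/kg. By the labels they were killed 1 hour after the last injection, whereas the methods of the study place a session in a locomotor chamber after that injection and count the time to death from its end. Named by the first and then the second treatment, the groups were LPS-Heroin, LPS-Saline, Saline-Heroin and, as the control, Saline-Saline. In the self-administration (SA) experiment, rats with a jugular catheter pressed for 0.075 mg/kg heroin per infusion (Heroin-SA) or for saline (Saline-SA) in 10 sessions of 6 hours and were killed directly after the last one. The SA rats lived alone and on a reversed light cycle, whereas the injected rats were housed in pairs. The tissue was a dissection of core and shell together from single animals, so a value averages over all cells in it, and fewer cells of a type cannot be told apart from less RNA per cell.

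Neurotrophins are secreted proteins that keep neurons alive and adjust their synapses. BDNF acts through the receptor tyrosine kinase TrkB, the product of Ntrk2, and neurotrophin-3, the product of Ntf3, acts mainly through TrkC, the product of Ntrk3. Ngfr encodes the low-affinity receptor that binds every neurotrophin and, with greater affinity, their uncleaved precursors. GDNF, first known as a survival factor of dopamine neurons, binds the membrane-anchored co-receptor GFRα1, and this pair activates the receptor tyrosine kinase Ret. In the striatum most BDNF protein is carried in along axons from the cortex and midbrain, Ntrk2 is made by neurons and, in a short form without the kinase, by astrocytes, and cholinergic neurons of the basal forebrain carry Ngfr.

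Each library held between 12312878 and 18850240 reads on genes. Mitochondrial transcripts took 6.82 to 9.10% of them in the 16 injection libraries and 10.0 to 15.9% in the 8 SA libraries. Markers of striatal medium spiny neurons, such as Drd1, Drd2 and Ppp1r1b, were detected in every library, with a summed level over 10 genes of 1215 to 3271 FPKM (a read count scaled by gene length and library size). Markers of cortical glutamatergic neurons were present too. Over 8 genes they summed to between 54.3 and 452 FPKM, and the lowest libraries were Heroin-SA replicate 4, Saline-SA replicate 3 and Saline-Saline replicate 3. Markers of cholinergic neurons, 3 genes, summed to between 7.90 and 37.1 FPKM. Markers of the choroid plexus, 5 genes, summed to 333 FPKM in Saline-Saline replicate 1 and to 1.25 to 27.0 FPKM in the other libraries. That control library was also the highest of its group for Gfra1 (12.9 FPKM), Ret (2.02 FPKM) and Ntrk2 (52.1 FPKM). Beyond the correlations with its markers given below, the part of the choroid plexus in these values was not tested.

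Promoter sequences were found for 5 of the 8 genes among the RefSeq windows of the GRCr8 rat assembly, which run from 250 bases before to 50 bases after each start. Bdnf, a gene with many alternative first exons, had 6 such windows, and the expression table holds 1 value per library over all of its transcripts. Of these windows 1 held the letters TGACG, the core of a CRE, the element that CREB binds in activity-driven genes, searched on both strands. It is shown because activity genes and Bdnf were compared in the heroin groups. The letters are in capitals where they match, here on the opposite strand, and 21.2% of all 33469 windows held them. Gfra1 and Ret are shown because both were lower in LPS-Heroin than in Saline-Saline, with each CG in capitals. The Ret window held 35 CG, a number that 6.13% of all windows reached, and the Gfra1 window held 19, which 25.7% reached. A match describes the letters only and no binding was measured.
Bdnf, chr3:116637608-116637907, plus strand: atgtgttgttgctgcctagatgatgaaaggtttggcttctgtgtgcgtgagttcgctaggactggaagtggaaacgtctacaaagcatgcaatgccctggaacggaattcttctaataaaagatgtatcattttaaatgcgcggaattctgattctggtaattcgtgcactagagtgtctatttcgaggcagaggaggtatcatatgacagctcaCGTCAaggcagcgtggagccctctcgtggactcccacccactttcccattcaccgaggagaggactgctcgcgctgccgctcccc
Gfra1, chr1:267555762-267556061, minus strand: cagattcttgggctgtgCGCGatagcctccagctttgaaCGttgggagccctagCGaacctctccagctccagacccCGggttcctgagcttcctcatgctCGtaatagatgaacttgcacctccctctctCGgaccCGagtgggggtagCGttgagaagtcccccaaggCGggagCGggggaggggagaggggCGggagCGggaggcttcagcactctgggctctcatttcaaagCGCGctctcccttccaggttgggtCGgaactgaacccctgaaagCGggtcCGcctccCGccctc
Ret, chr4:153040507-153040806, minus strand: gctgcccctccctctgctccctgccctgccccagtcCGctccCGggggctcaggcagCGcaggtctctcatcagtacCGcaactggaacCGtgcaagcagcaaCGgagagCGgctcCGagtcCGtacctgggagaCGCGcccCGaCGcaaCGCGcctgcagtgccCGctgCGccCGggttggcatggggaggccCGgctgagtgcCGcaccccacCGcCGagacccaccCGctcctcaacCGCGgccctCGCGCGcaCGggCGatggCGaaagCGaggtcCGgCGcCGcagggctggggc

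FPKM is scaled by the annotated gene length, which ran from 700 bases for Gdnf to 10685 bases for Ntrk2. The order of the genes by level depends on these lengths and is approximate. Ntrk2 was the most abundant of the 8, with a mean of 42.0 FPKM over the 24 libraries. Ntrk3 followed at 14.0 FPKM and Gfra1 at 7.95 FPKM. The other neurotrophin receptor, Ngfr, averaged 2.89 FPKM and Bdnf 2.07 FPKM. Ret, Gdnf and Ntf3 were the scarcest, at 1.03, 0.979 and 0.581 FPKM. Ntrk2 and Ntrk3 were each far above the gene of their ligand in this tissue, and the co-receptor Gfra1 was above both Gdnf and Ret. The Ntrk2 value covers all of its transcripts, so it does not separate the kinase form from the short form. The steadiest was Ntrk3, whose highest library was 1.77 times its lowest, with Ntrk2 next at 1.78 times. Ntf3 spanned 46.7 times, on 1 to 49 reads per library, and Gdnf rested on 3 to 22 reads, so the values of these ligands carry large counting error. When the 6 groups were put in order of their means for each gene, the libraries of every one of the 40 pairs of neighbouring groups overlapped.

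**Figure D1:**
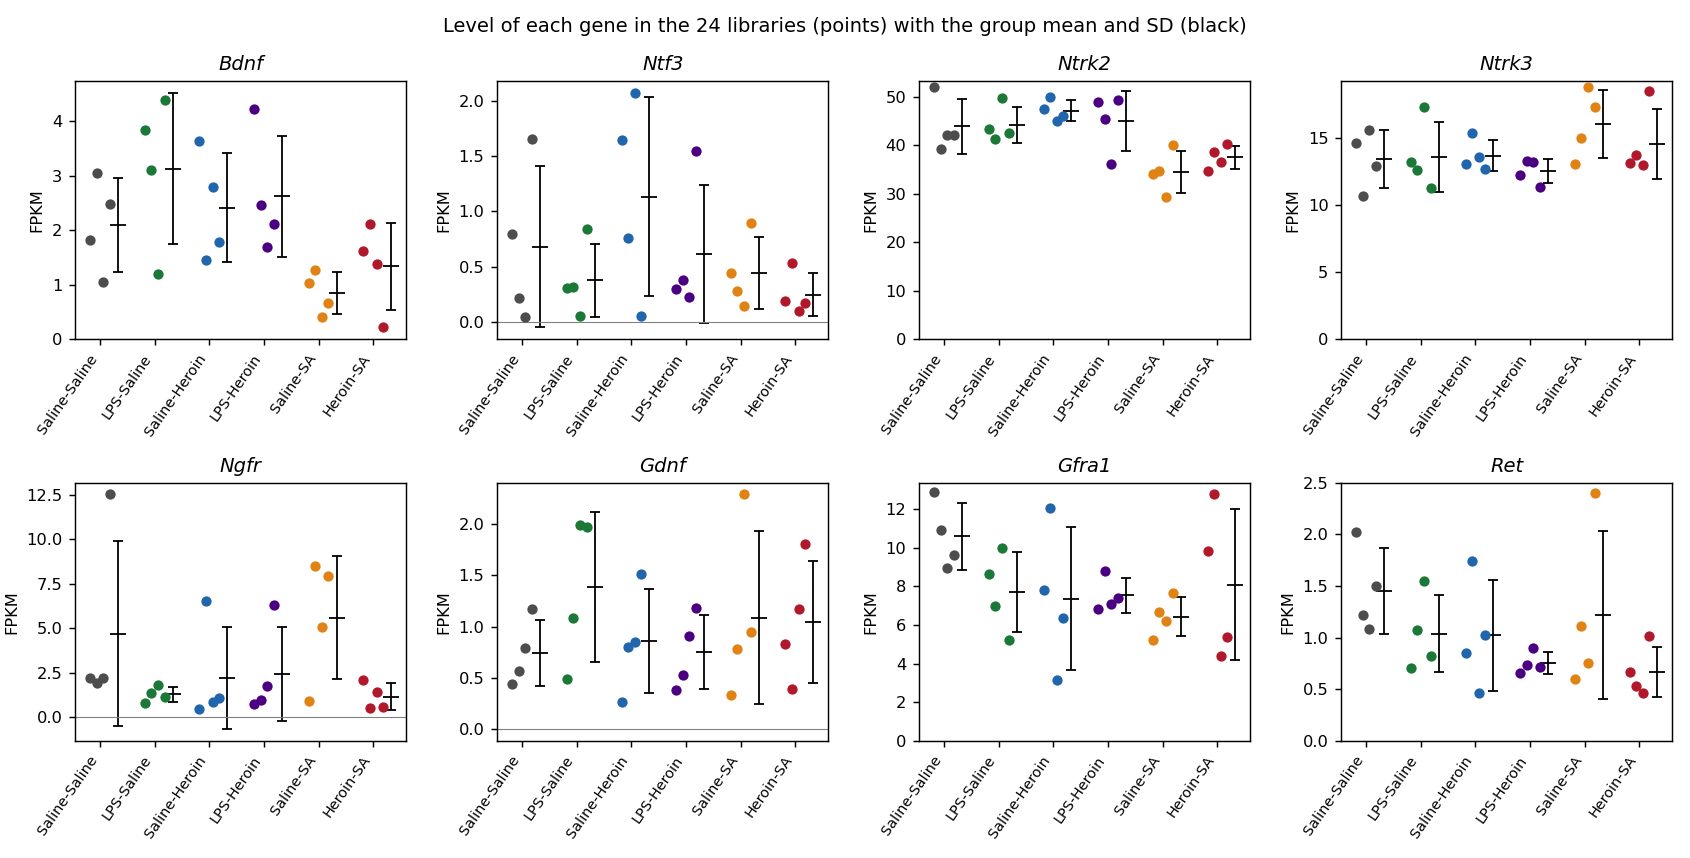
FPKM of each of the 8 genes (vertical axes, linear) in the 24 libraries, by group, with the group mean and its SD over 4 libraries in black. Bdnf and Ntrk2 have their lowest group means in the SA groups, single libraries stand far above the rest for Ngfr, and Gfra1 and Ret have their highest mean in Saline-Saline.

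In each comparison a gene was called at an unadjusted p of at most 0.05 with at least a 1.3-fold change, on log2(FPKM + 0.1) and limma, and Benjamini-Hochberg adjusted p-values were taken over all genes with a mean of at least 0.5 FPKM. The 3 comparisons with Saline-Saline below share the same 4 control libraries. The first asked what earlier LPS left behind in rats that never received heroin. In LPS-Saline against Saline-Saline, 2 of the 8 genes were called, both lower, while 2.36% of the 15119 genes tested were called. The receptors Ngfr and Gfra1 were those called, and neither had an adjusted p under 0.05, nor did any other gene in that comparison. At an unadjusted p alone 1002 genes passed.

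Ngfr, on chromosome 10 at 83389847 to 83408061 (ENSRNOG00000005392, rn6), stood at 2.18, 1.91, 2.17 and 12.5 FPKM in the Saline-Saline libraries. In LPS-Saline it was at 0.813, 1.34, 1.81 and 1.14 FPKM. All 4 LPS-Saline libraries were below all 4 of Saline-Saline, of which replicate 4 was far above the others. The log2 fold change was -1.35 (SE 0.57; limma, Benjamini-Hochberg adjusted p = 0.736). By exact two-sided permutation of mean FPKM the p was 0.0286, the smallest that 4 against 4 can give, and 4.11% of all genes tested had groups that did not overlap. Without Saline-Saline replicate 4 the log2 fold change was -0.72, and without LPS-Saline replicates 1, 2 or 4 the gene was no longer called. The call of Ngfr also ended with a pseudocount of 1, at -0.99, with limma-voom on recovered reads, at -1.43, and with all 6 groups in one fit. Cholinergic markers overlapped between these groups, with summed levels of 14.7 to 35.0 FPKM in Saline-Saline and 11.5 to 37.1 FPKM in LPS-Saline, and none of the 3 was called.

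Gfra1, on chromosome 1 at 279207586 to 279277339 (ENSRNOG00000017438), stood at 12.9, 10.9, 8.95 and 9.61 FPKM in Saline-Saline and at 8.64, 6.96, 9.97 and 5.20 FPKM in LPS-Saline. Replicate 3 of LPS-Saline reached into the control range and the others were below it. Its log2 fold change was -0.48 (SE 0.20; limma, Benjamini-Hochberg adjusted p = 0.736), and leaving out Saline-Saline replicate 1 or 2, or LPS-Saline replicate 2 or 4, ended the call. Its partner Ret was not called at -0.47 (SE 0.30; limma, Benjamini-Hochberg adjusted p = 0.787). Bdnf at 0.51 (SE 0.44) and Gdnf at 0.72 (SE 0.47) had positive log2 fold changes that missed the threshold (limma, Benjamini-Hochberg adjusted p = 0.846 and 0.792). Each of them was called when 1 library was left out, Bdnf at 0.90 without LPS-Saline replicate 3 and Gdnf at 1.11 without LPS-Saline replicate 1. Ntrk2 and Ntrk3, the kinase receptors, were not called, with 95% intervals of the log2 fold change from -0.20 to 0.24 and from -0.34 to 0.36. Among the other genes of these pathways, the activity gene Nr4a3, an inducible nuclear receptor, rose by 0.56 (SE 0.17; limma, Benjamini-Hochberg adjusted p = 0.679) without overlap. Of the 9 other neurotrophin ligands and receptors tested and the 8 other GDNF-family and GDNF-related genes tested, 0 were called by limma.

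The second comparison asked for the effect of 5 days of injected heroin alone. In Saline-Heroin against Saline-Saline 0 of the 8 genes were called by limma, against 3.07% of the 15143 genes tested, and 0 had an unadjusted p under 0.05, also with limma-voom on recovered reads. Gfra1 stood at 7.80, 12.1, 3.17 and 6.38 FPKM in Saline-Heroin, Ret at 0.852, 1.75, 0.461 and 1.02 FPKM, and Ngfr at 0.443, 6.52, 0.833 and 1.05 FPKM. For all 3 receptors the same rat, replicate 2, was the highest of its group and reached into the Saline-Saline range. The log2 fold changes were -0.66 (SE 0.34) for Gfra1, -0.56 (SE 0.38) for Ret and -1.27 (SE 0.84) for Ngfr. Without replicate 2 all 3 were called, at -0.94, -0.85 and -2.02. That library also had the highest cholinergic marker level of its group, with 33.1 FPKM summed over 3 genes where the median of the group was 12.9 FPKM, and its cortical markers were the lowest of the group. What part this had in the levels of the receptors was not tested.

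Bdnf, on chromosome 3 at 100768637 to 100819210 (ENSRNOG00000047466), was at 1.81, 3.06, 1.05 and 2.48 FPKM in Saline-Saline and at 3.64, 1.44, 2.79 and 1.79 FPKM in Saline-Heroin. The groups overlapped over most of their range. The log2 fold change was 0.20 (SE 0.37; limma, Benjamini-Hochberg adjusted p = 0.933), with a 95% interval from -0.65 to 1.05. Over the same libraries, 8 of the 14 activity genes tested fell and 0 rose, where 1.67% of all genes were called lower, and the median log2 fold change of the 14 was -0.60 against 0.00 for all genes tested. Among them Fos, the transcription factor that marks recent neuronal activity, fell by 0.96 on the log2 scale (SE 0.20), Egr2 by 1.64 (SE 0.42) and Egr1 by 0.60 (SE 0.20), each without overlap of the groups (limma, Benjamini-Hochberg adjusted p = 0.750 for each). Dusp5, a phosphatase that switches off ERK downstream of Trk and Ret, fell by 0.78 (SE 0.17; limma, Benjamini-Hochberg adjusted p = 0.750) and was the 1 gene called of 17 brakes on receptor tyrosine kinases. None of the 34 adaptors and kinases of Trk and Ret signalling tested was called by limma.

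The third comparison joined both treatments. In LPS-Heroin against Saline-Saline 2 of the 8 genes were called, Gfra1 and Ret, both lower, while 5.42% of the 15134 genes tested were called. Both components of the GDNF receptor were lower in the same rats, with no overlap of the groups, as was the case for 6.86% of all genes. Neither passed an adjusted p of 0.05, and no other gene did so in limma, where 1704 genes had an unadjusted p of at most 0.05.

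Gfra1 was at 6.81, 8.80, 7.08 and 7.42 FPKM in LPS-Heroin. Every one of these was below the lowest Saline-Saline library at 8.95 FPKM, though replicate 2 came close. In Gfra1 this was a log2 fold change of -0.48 (SE 0.13; limma, Benjamini-Hochberg adjusted p = 0.231), and the exact permutation p was 0.0286. Ret, on chromosome 4 at 150202058 to 150244372 (ENSRNOG00000014751), was at 2.02, 1.22, 1.08 and 1.50 FPKM in Saline-Saline and at 0.659, 0.733, 0.902 and 0.716 FPKM in LPS-Heroin. The LPS-Heroin libraries lay close together, with an SD of 0.105 FPKM, and under all of the controls. For Ret the log2 fold change was -0.84 (SE 0.26; limma, Benjamini-Hochberg adjusted p = 0.273; exact permutation p = 0.0286). Leaving out any 1 of the 8 libraries kept both calls, with log2 fold changes between -0.56 and -0.38 for Gfra1 and between -0.96 and -0.68 for Ret. In a fit of all 6 groups together Gfra1 was no longer called.

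**Figure D2:**
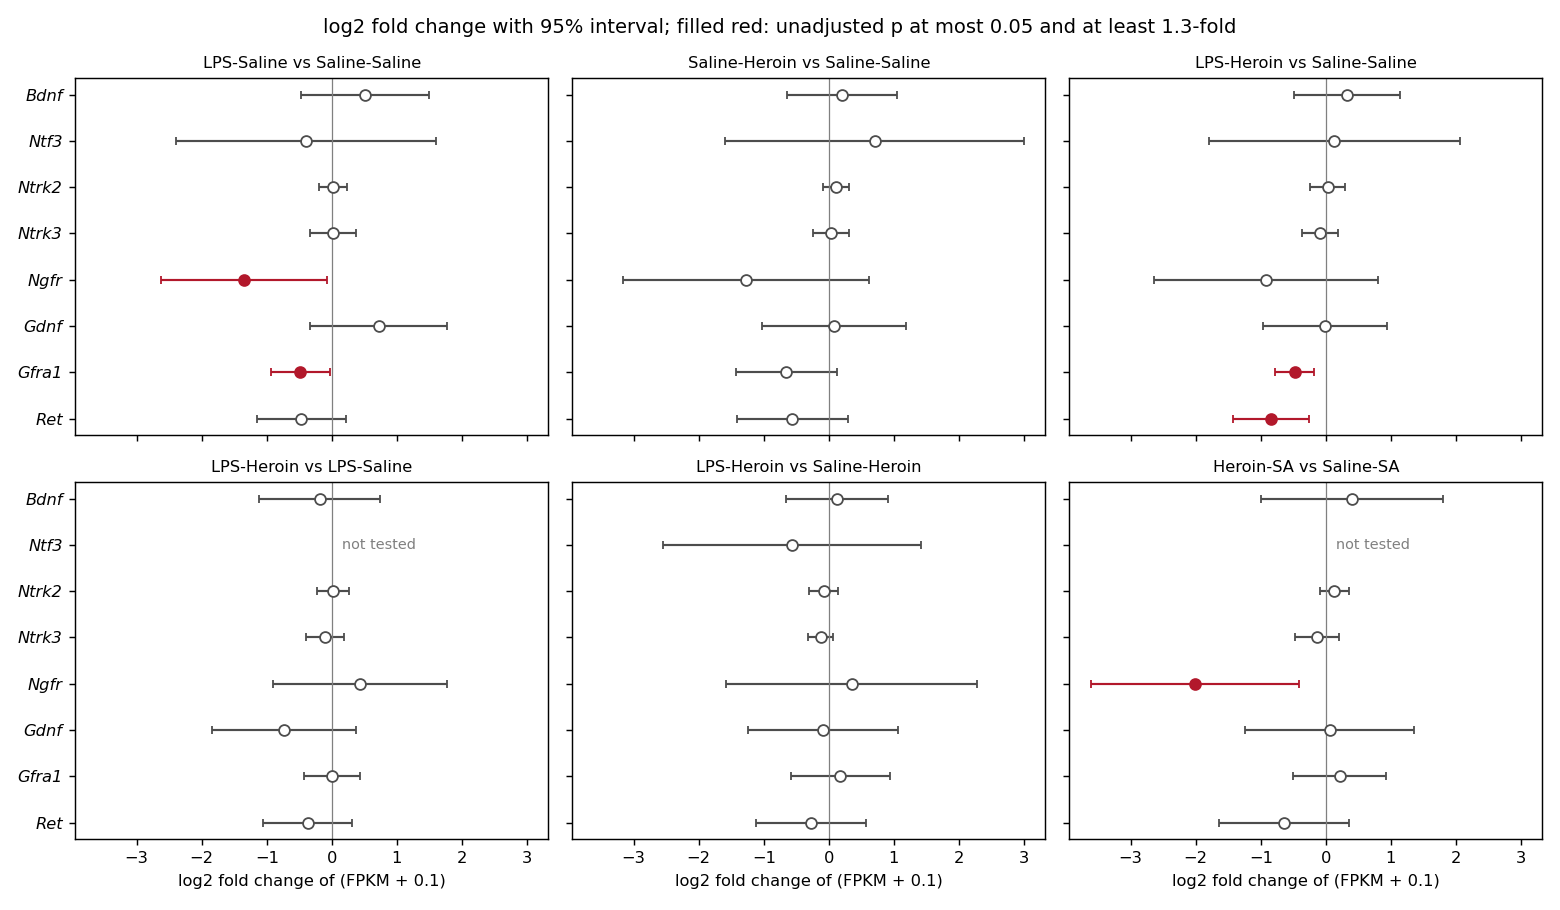
log2 fold change of FPKM + 0.1 (horizontal axes) with its 95% interval from limma for the 8 genes in 6 pairwise comparisons. Filled red points mark the 5 calls, which are Ngfr and Gfra1 in LPS-Saline, Gfra1 and Ret in LPS-Heroin against Saline-Saline, and Ngfr in Heroin-SA; all are below 0, and Ntf3 was under the level filter in 2 comparisons.

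Gdnf, the ligand of this receptor, differed by -0.01 (SE 0.42) on the log2 scale, and the other 6 GDNF-family and GDNF-related genes tested held no call. Ntrk2, Ntrk3 and Bdnf were at 0.03 (SE 0.12), -0.09 (SE 0.12) and 0.32 (SE 0.36). Ngfr stood at 0.720, 0.948, 1.75 and 6.32 FPKM in LPS-Heroin, with a log2 fold change of -0.92 (SE 0.76; limma, Benjamini-Hochberg adjusted p = 0.701). Replicate 4 was inside the control range and the other 3 libraries were below it. Without that replicate Ngfr was called at -1.54. Lingo1 and Rtn4r, which form the Nogo receptor complex with the Ngfr product, rose by 0.63 (SE 0.13) and 0.91 (SE 0.23) and were the 2 called of 9 other neurotrophin genes tested (limma, Benjamini-Hochberg adjusted p = 0.179 and 0.212). Their means went from 51.0 to 77.8 FPKM and from 10.3 to 18.9 FPKM. Of 9 genes for processing and sorting of proneurotrophins, 3 rose and 1 fell, where 2.99% of all genes tested were called higher and 2.44% lower. Among them were the protease inhibitor Serpini1 at 0.54 (SE 0.14) and Hap1, which helps carry proBDNF, at -0.63 (SE 0.18; limma, Benjamini-Hochberg adjusted p = 0.230 and 0.239). Markers of cortical glutamatergic neurons moved with this comparison. Of 8 such genes 6 were higher and 0 lower, with summed levels of 358 to 452 FPKM in LPS-Heroin and 98.5 to 281 FPKM in Saline-Saline. Markers of oligodendrocyte precursors, 3 genes, went the way of Gfra1 and Ret. Their mean log2(FPKM + 0.1) was 4.13 to 4.19 in LPS-Heroin and 4.23 to 4.55 in Saline-Saline, without overlap, although the summed levels of 109 to 149 FPKM and 129 to 177 FPKM overlapped and 0 of the 3 were called by limma. Dopamine neuron markers, 4 genes, summed to 2.07 to 2.79 FPKM in LPS-Heroin and 3.57 to 6.74 FPKM in Saline-Saline. Over the 2 of them that averaged at least 0.5 FPKM, the mean log2(FPKM + 0.1) overlapped, at -0.34 to 0.49 and 0.14 to 0.81. Of the 3 tested 1, Ddc, was called lower. The part of any of these markers in the results was not tested.

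LPS-Heroin was also set against each single treatment, to separate the effect of heroin in LPS-treated rats from that of LPS in heroin-treated rats. In LPS-Heroin against LPS-Saline 0 of the 7 genes tested were called by limma, against 2.29% of 15069 genes, and in LPS-Heroin against Saline-Heroin 0 of 8 were called, against 2.20% of 15121 genes. No gene of the 8 had an unadjusted p under 0.05 in either, also with limma-voom on recovered reads. Gfra1 differed by 0.00 (SE 0.19) and 0.18 (SE 0.34), and Ret by -0.37 (SE 0.30) and -0.27 (SE 0.38). The 95% intervals for Ret, from -1.05 to 0.32 and from -1.12 to 0.57, still hold a change as large as that between LPS-Heroin and Saline-Saline. Bdnf was at -0.19 (SE 0.41) between LPS-Heroin and LPS-Saline, where 9 of the 14 activity genes fell and 0 rose, against 1.15% of all genes called lower, with a median log2 fold change of -0.59 over the 14. Against Saline-Saline, 0 of the 14 were called in LPS-Heroin, where 5.42% of all genes were, and their median was -0.26. In LPS-Saline against Saline-Saline 2 of the 14, Homer1 and Nr4a3, were called higher, against 1.21% of all genes, with a median of 0.41.

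Fitted over all 16 injection libraries, no gene of the 8 was called for the mean effect of LPS, the mean effect of heroin or the interaction of both. The shares over all 15113 genes tested were 1.75%, 2.45% and 2.31%. The nearest to a call was Ret for heroin, at -0.47 (SE 0.24; limma, Benjamini-Hochberg adjusted p = 0.656), which limma-voom on recovered reads called at -0.52. For the interaction, Gfra1 was at 0.66 (SE 0.42) and Ngfr at 1.70 (SE 1.11), so a difference between heroin effects with and without earlier LPS was not shown. Those values became 0.94 and 2.45, both called, when Saline-Heroin replicate 2 was left out, and the same omission gave calls for Gfra1 at -0.47 and Ret at -0.61 for heroin. Bdnf was at 0.01 (SE 0.30) for heroin, whereas 9 of 14 activity genes fell, against 1.38% of all genes, led by Fos at -0.96 (SE 0.21) and Egr2 at -1.48 (SE 0.33; limma, Benjamini-Hochberg adjusted p = 0.510 and 0.516). Of the 17 brakes on receptor tyrosine kinases tested, 3 fell for heroin and 0 rose, against the same 1.38% of all genes. Dusp5, Dusp4 and Spry4 were at -0.68 (SE 0.14), -0.42 (SE 0.16) and -0.39 (SE 0.15; limma, Benjamini-Hochberg adjusted p = 0.375, 0.572 and 0.581). Plat, the protease tPA that activates the plasminogen able to cleave proBDNF, rose by 0.65 (SE 0.18; limma, Benjamini-Hochberg adjusted p = 0.547), and Nrtn, a ligand of the GDNF family, fell by 0.54 (SE 0.21; limma, Benjamini-Hochberg adjusted p = 0.586).

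In the SA experiment, Heroin-SA was compared with Saline-SA. Of the 7 genes tested 1 was called, Ngfr, which was lower, against 5.44% of 15024 genes. Ngfr stood at 0.905, 8.49, 5.09 and 7.92 FPKM in Saline-SA and at 2.10, 0.488, 1.42 and 0.593 FPKM in Heroin-SA. Replicate 1 of Saline-SA was as low as the heroin libraries, so the groups overlapped, and the other 3 were above all of them. On the log2 scale the change was -2.01 (SE 0.71; limma, Benjamini-Hochberg adjusted p = 0.366; exact permutation p = 0.0857). Omitting Saline-SA replicate 2 or 4, or Heroin-SA replicate 2, ended the call. Cholinergic markers moved with it. Of 3 genes 2 fell, Chat and Lhx8, and the summed levels were 14.0 to 31.3 FPKM in Saline-SA and 11.6 to 22.2 FPKM in Heroin-SA. What part the cholinergic markers had in the value of Ngfr was not tested.

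Bdnf was at 1.04, 1.27, 0.396 and 0.668 FPKM in Saline-SA and at 1.61, 2.12, 1.39 and 0.219 FPKM in Heroin-SA. The first 3 Heroin-SA libraries were above all of Saline-SA, and replicate 4 was below all of them. Bdnf had a log2 fold change of 0.40 (SE 0.62; limma, Benjamini-Hochberg adjusted p = 0.821). Without Heroin-SA replicate 4 Bdnf was called higher, at 1.02. That library also had the lowest cortical markers of all 24, at 54.3 FPKM summed over 8 genes where the median of its group was 321 FPKM, and its part in the value was not tested. Of 14 activity genes 7 fell and 1, Homer1, rose, where 2.41% of all genes were called lower. Those that fell included Nr4a1 at -0.61 (SE 0.16), Egr4 at -0.47 (SE 0.13) and Fosb at -0.69 (SE 0.19; limma, Benjamini-Hochberg adjusted p = 0.33 for each). Ntrk2, Gfra1 and Ret were at 0.13 (SE 0.10), 0.21 (SE 0.31) and -0.65 (SE 0.44). Dusp5 fell by 0.63 (SE 0.26; limma, Benjamini-Hochberg adjusted p = 0.412). Of the fibroblast growth factors Fgf2 rose by 0.81 (SE 0.24) while Fgf1 fell by 0.84 (SE 0.28; limma, Benjamini-Hochberg adjusted p = 0.34 and 0.35).

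**Figure D3:**
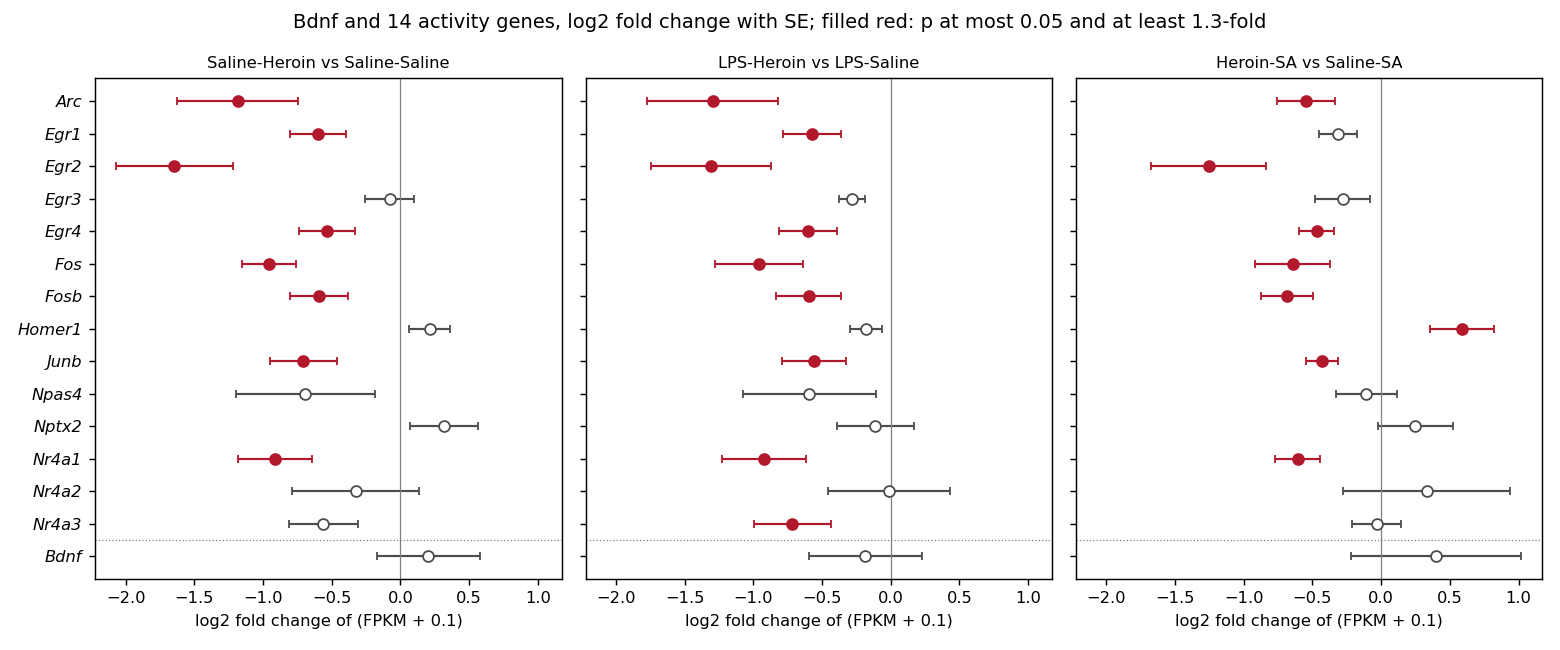
log2 fold change of FPKM + 0.1 (horizontal axes) with its SE for Bdnf and 14 activity genes in the 3 comparisons of heroin with its own control. Red points are called; 8, 9 and 7 activity genes were called lower, Homer1 was called higher in Heroin-SA, and Bdnf was called in none of them.

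The saline controls of the experiments, Saline-SA and Saline-Saline, differ in housing, light cycle, surgery and time of death, and were collected as separate experiments, so none of these can be told apart. Of the 8 genes 2 were called lower in Saline-SA, Gfra1 and Bdnf, against 22.7% of 15150 genes. Gfra1 was at 5.20, 6.69, 6.19 and 7.67 FPKM in Saline-SA. All of these were below the Saline-Saline libraries, as 28.3% of all genes tested had groups without overlap. The log2 fold change was -0.71 (SE 0.15; limma, Benjamini-Hochberg adjusted p = 0.0106), the only adjusted p under 0.05 for any of the 8 genes in the 10 comparisons, in one where 23.7% of all genes had such a p. Bdnf was at -1.23 (SE 0.41; limma, Benjamini-Hochberg adjusted p = 0.0602), with Saline-SA replicate 2 inside the control range. Replicate 1 of Saline-SA, at 1.038 FPKM, was just below the lowest Saline-Saline library at 1.052 FPKM. Ntrk2 stood at 52.1, 39.3, 42.0 and 42.2 FPKM in Saline-Saline and at 34.0, 34.7, 29.2 and 40.0 FPKM in Saline-SA. Replicate 4 of Saline-SA reached into the control range. Its log2 fold change was -0.35 (SE 0.11; limma, Benjamini-Hochberg adjusted p = 0.0563), below the fold limit.

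Other genes of the pathways differed between these controls too. Of 35 adaptors and kinases 10 were lower and 1 higher, where 14.3% of all genes were called lower and 8.46% higher. Among them were the Ret adaptor Dok6 at -1.78 (SE 0.12), Shc3 at -0.84 (SE 0.12) and Plcg1 at 0.49 (SE 0.05; limma, Benjamini-Hochberg adjusted p = 7.78e-05, 0.00207 and 6.29e-04). Ncam1, an alternative receptor of GDNF, fell by 1.01 (SE 0.09), from a mean of 75.8 to 37.6 FPKM, and Gfra2, the co-receptor of neurturin, fell by 0.70 (SE 0.24). Sorcs1, a sorting receptor of the sortilin family, fell by 0.93 (SE 0.16), and Pspn, the GDNF-family ligand persephin, rose by 1.16 (SE 0.28). Spred1 and Cbl, which restrain receptor tyrosine kinase signalling, were at -1.16 (SE 0.12) and -1.40 (SE 0.18). Mitochondrial reads were 12.9% ± 2.47 (SD, n = 4) of the total in Saline-SA and 7.78% ± 0.82 in Saline-Saline, and 7 of 10 markers of medium spiny neurons were higher in Saline-SA. Of 7 astrocyte markers 2 were lower there, and the mean log2(FPKM + 0.1) of the oligodendrocyte precursor markers was 4.02 to 4.17 in Saline-SA, below all of Saline-Saline. The part of these markers was not tested. Of all calls in this comparison 37.2% were higher, and 50.5% were when libraries were scaled to equal medians, which moved the median log2 fold change of all genes from 0.01 to 0.07.

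Across the libraries the 8 genes were set against marker lists of particular cells and against each other. For each gene the deviation of log2(FPKM + 0.1) from its group mean was correlated with that of every other gene and of 12 marker lists, in 124 relations over 24 libraries, with 100000 permutations of the libraries and Benjamini-Hochberg adjustment over all 124. By Pearson's r 16 relations passed, 2 of 28 between the genes and 14 of 96 with lists, and 12 passed by Spearman's rho as well. The permutations moved deviations between groups and between the experiments, although the group means had been removed. The p-values are therefore too small to some degree, and relations near the threshold may not hold.

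Bdnf followed the cortical glutamatergic markers, with r = 0.894 (permutation p = 1e-05, the smallest that these permutations give, adjusted p = 6.2e-04) and rho = 0.781 (adjusted p = 0.00165). The relation was r = 0.802 in the 16 injection libraries and 0.967 in the 8 SA libraries, and 0.810 without the 2 libraries farthest from the median. Heroin-SA replicate 4 and Saline-SA replicate 3, the lowest for Bdnf within their groups, were the lowest for cortical markers. Ntrk3 went the other way, with r = -0.809 (permutation, adjusted p = 6.2e-04) and rho = -0.669 (adjusted p = 0.00961) against the same markers, and r = -0.707 without the 2 farthest libraries. Bdnf and Ntrk3 were opposed, with r = -0.815 (permutation, adjusted p = 6.2e-04) and rho = -0.661, r = -0.771 among injection libraries and -0.876 among SA libraries. Bdnf and Gdnf were opposed as well, with r = -0.624 (permutation, adjusted p = 0.0177) and rho = -0.676.

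Ntrk2 followed the astrocyte markers, with r = 0.842 (permutation, adjusted p = 6.2e-04) and rho = 0.783, and values of 0.836 and 0.859 in the injection and SA libraries. Ngfr followed the cholinergic markers, with r = 0.739 (permutation, adjusted p = 0.00165) and rho = 0.681. That relation was r = 0.845 among the injection libraries and 0.459 among the SA libraries, and 0.645 without the 2 farthest libraries. Gdnf also followed them, with r = 0.730 (permutation, adjusted p = 0.00124) and rho = 0.758, on its 3 to 22 reads per library. Other relations passed by both r and rho. Bdnf ran against cholinergic markers (r = -0.639) and with GABAergic interneuron markers (0.581), and Gdnf ran against cortical markers (-0.591). Ntrk3 ran against GABAergic interneuron markers (-0.600) and Ntf3 against medium spiny neuron markers (-0.582). Bdnf, Ntrk3 and Gdnf were thus each related to more than 1 list. Gfra1 and Ret had r = 0.524 (permutation, adjusted p = 0.0584) and rho = 0.472, which missed the threshold; r was 0.793 among the injection libraries and 0.187 among the SA libraries. Ret followed the markers of oligodendrocyte precursors by Pearson's r, at 0.551 (permutation, adjusted p = 0.0440), but not by rho, at 0.458 (permutation, adjusted p = 0.151), and r was 0.755 in the injection libraries, 0.217 in the SA libraries and 0.586 without the 2 farthest. For Gfra1 and the same markers r was 0.486 (permutation, adjusted p = 0.0804) and rho 0.399, with r = 0.861 in the injection libraries and -0.413 in the SA libraries. Ret and dopamine neuron markers had r = 0.588 (permutation, adjusted p = 0.0265) and rho = 0.445 (permutation, adjusted p = 0.163), and r fell to 0.331 without the 2 farthest libraries, so that relation rests on them. These relations rest on the spread within groups, and the part that cell makeup had in the group differences was not tested.

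**Figure D4:**
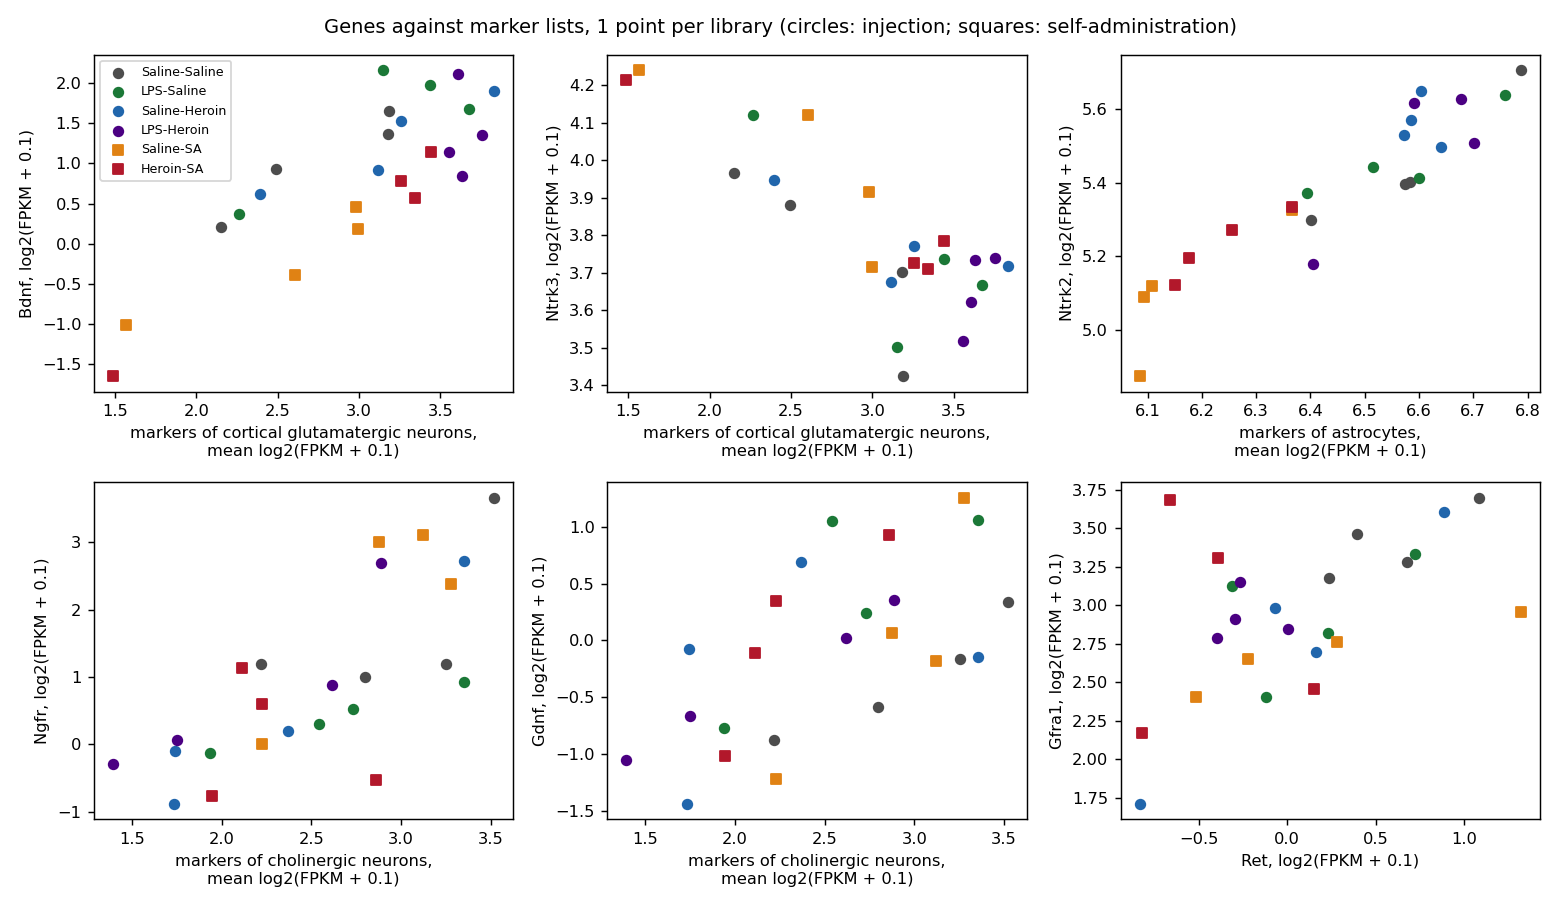
Each point is 1 library, with log2(FPKM + 0.1) of a gene on the vertical axis and, on the horizontal axis, the mean log2(FPKM + 0.1) of a marker list or, in the last panel, of Ret. Bdnf rises and Ntrk3 falls with cortical markers, Ntrk2 rises with astrocyte markers, Ngfr and Gdnf rise with cholinergic markers, and for Gfra1 and Ret the injection libraries (circles) line up more closely than the SA libraries (squares).

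Among 12455 genes with a mean of at least 1 FPKM, those whose levels across all 24 libraries were most like each gene were listed by Pearson's r, as a description without a test. For Bdnf they were Elavl4 (Pearson r = 0.930), the neuronal pentraxin Nptx2 (0.919) and Tbr1 (0.908), a transcription factor of cortical projection neurons. For Ntrk2 they were Pdlim5 (0.884), the astrocyte glutamate transporter Slc1a3 (0.883) and Ptprg (0.870). For Ngfr they included Slc25a1 (0.839) and Ecel1 (0.820). Those like Ret included Rassf8 (0.877) and the potassium channel Kcnj16 (0.854). Gfra1 had no partner as close, with Relt at 0.712, its paralog Gfra2 at 0.699 and Rims3 at 0.669. Ntf3 was nearest to the matrix gene Matn2 (0.861), Ndnf (0.821) and Fgfbp3 (0.801), Ntrk3 to Fam214a (0.817), Sema3f (0.812) and Ttll3 (0.810), and Gdnf to Hibadh (0.703), Ly86 (0.684) and Bmp2 (0.682).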

How the data were processed

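Polyadenylated RNA of the NAc, 300 ng of total RNA per rat, was made into directional libraries and sequenced by a provider. According to the submitters' processing notes and the methods of the study, reads were trimmed with fastp, aligned to rn6 with HISAT2 and counted on genes with featureCounts; versions and annotation release are not given in the sources used here. The authors deposited FPKM, read counts divided by library size and the length of the gene, for each of 32545 genes in 24 libraries, with 4 biological replicates per group per the labels where the methods of the study state more. Whole reads were recovered from 100.0% of values above 0, within 0.01 of a read. All 8 genes lay clear of other listed genes.

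The 8 genes, the lists of pathway and marker genes and the tests were chosen with earlier results of these data known. Log2(FPKM + 0.1) was fitted with limma 3.58.1 (trend, R 4.3.3) over genes whose mean in the libraries compared was 0.5 FPKM or more, and tested on simulated data. A call needed an unadjusted p of at most 0.05 and a 1.3-fold change, after thresholds of the study. From the lists, at most 3 called genes per list and comparison, without overlap of the groups in pairwise comparisons, were named, with all 8 genes of interest and the 3 most alike to each. Some genes that this rule names are not reported here. Homer1, Chat, Lhx8, Arc and the other activity genes plotted were named after their values were seen. Means are given with SD over 4 libraries. Exact permutation tests were two-sided over the 70 splits of 8 libraries. Alternatives were other pseudocounts, filters, scalings, call rules and moderation, all groups in one fit, limma-voom on the recovered reads, a replicate block and leaving out each library. Python 3.11.15 with SciPy 1.17.1 was used for the other tests.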

Additional observations from a re-analysis of the deposited data

Results flagged for a closer look

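In 4 of the 48 sets of 4 libraries, 8 genes in 6 groups, 1 library stood apart from the other 3 by Dixon's test, which chance does in about 1 of 20 sets. Ngfr in Saline-Saline was at 12.5 FPKM in replicate 4, where the next highest library had 2.18 FPKM. Ngfr in Saline-Heroin was at 6.52 FPKM in replicate 2 and next at 1.05 FPKM. Both libraries had the highest cholinergic marker level of their group, and the part of those cells was not tested. Ntrk3 in Heroin-SA was at 18.4 FPKM in replicate 4, next at 13.7 FPKM, in the library with the lowest cortical markers of all. Ntf3 in LPS-Heroin was at 1.55 FPKM in replicate 4, next at 0.375 FPKM.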

How the results depend on the processing

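Counts of genes called among the 8 moved by over 1.5 times in 13 of 120 combinations of comparison and alternative setting, and some others went from 2 to 3. Those were Ntrk2 added in Saline-SA against Saline-Saline by limma-voom or with no limit on the fold, and Ngfr added in LPS-Heroin against Saline-Saline with the replicate block. With an adjusted p under 0.05, 0 were called by limma in LPS-Saline, in LPS-Heroin (both against Saline-Saline) and in Heroin-SA, and 1, Gfra1, in Saline-SA against Saline-Saline. In LPS-Saline against Saline-Saline 1 was called with a pseudocount of 1, 1 by limma-voom on recovered reads and 0 with all 6 groups in one fit, which left 1, Ret, in LPS-Heroin. For the mean effect of heroin 1 was called by limma-voom. The log2 fold changes of single genes kept their sign in all but 16 of 762 combinations. Those that turned were all small. In LPS-Saline against Saline-Saline Ntrk2 was at -0.0037 with equal medians, -0.0015 with quantile normalization and -0.0072 by limma-voom, and Ntrk3 at -0.0063 and -0.0134 with equal medians and limma-voom. In LPS-Heroin against Saline-Saline Gdnf was at 0.0016 with a pseudocount of 1 and 0.0012 with quantile normalization, Ntf3 at -0.0283 with a pseudocount of 1, and Ntrk2 at -0.0057 with quantile normalization and -0.0004 by limma-voom. In LPS-Heroin against LPS-Saline Gfra1 was at -0.0004 with a pseudocount of 1 and Ntrk2 at -0.0045 with quantile normalization. In Saline-SA against Saline-Saline Ntf3 was at 0.0354 with a pseudocount of 0.01 and 0.1131 with quantile normalization. For heroin overall Bdnf was at -0.0096 with a pseudocount of 1 and -0.0059 by limma-voom. The cause was not tested. Over all genes tested, dropping the level filter raised the calls by over 1.5 times in 6 comparisons, for example from 357 to 581 in LPS-Saline against Saline-Saline, from 371 to 627 for heroin, from 265 to 514 for LPS, from 349 to 565 for the interaction, and from 345 to 548 and 332 to 524 in LPS-Heroin against LPS-Saline and Saline-Heroin.

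Same-numbered libraries did not deviate together strongly. Correlations were -0.15 to 0.154, with at most 1 of 4 pairs over 0.1 in a pairwise comparison. So few pairs cannot exclude that the numbers pair the rats. With the replicate number as a block, 1 gene was called in Saline-Heroin against Saline-Saline (Gfra1), 1 in LPS-Heroin against LPS-Saline (Gdnf), 1 for the interaction (Gdnf), 3 in LPS-Heroin against Saline-Saline, where Ngfr joined Gfra1 and Ret, and 0 in Heroin-SA. The counts of calls among the 8 in the other comparisons did not move.

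Leaving out 1 library at a time gave 0 to 3 genes called in LPS-Saline and 0 to 3 in Saline-Heroin against Saline-Saline, 2 to 3 in LPS-Heroin against Saline-Saline, 0 to 1 in LPS-Heroin against LPS-Saline, 0 to 2 in Heroin-SA, 2 to 4 in Saline-SA against Saline-Saline, 0 to 1 for LPS, 0 to 2 for heroin and 0 to 2 for the interaction. The libraries whose omission changed which genes were called were Saline-Saline replicates 1 and 2 and LPS-Saline replicates 1, 2, 3 and 4 in LPS-Saline; LPS-Heroin replicate 4 for Ngfr in LPS-Heroin against Saline-Saline; Saline-Heroin replicate 2 for the 3 calls in Saline-Heroin, for heroin and for the interaction; LPS-Saline replicate 1 for Gdnf in LPS-Heroin against LPS-Saline and for Ret with heroin; Saline-SA replicates 2 and 4 and Heroin-SA replicates 2 and 4 in Heroin-SA; Saline-SA replicate 4 and, for Ntrk2, Saline-Saline replicate 2 between the controls; and Saline-Heroin replicate 3 for Ret with LPS. Pairs of gene and comparison without overlap numbered 4, and 4 to 7 with 1 library left out. Log2 fold changes that changed sign had these ranges. In LPS-Saline against Saline-Saline they were -0.0416 to 0.1003 for Ntrk2, -0.1087 to 0.0975 for Ntrk3 and -1.0147 to 0.0595 for Ntf3. In Saline-Heroin they were -0.0707 to 0.1103 for Ntrk3, -0.0762 to 0.4091 for Bdnf and -0.2317 to 0.4788 for Gdnf. In LPS-Heroin against Saline-Saline they were -0.0194 to 0.1323 for Ntrk2, -0.2436 to 0.2254 for Gdnf and -0.4797 to 0.7227 for Ntf3. Against LPS-Saline they were -0.0324 to 0.1169 for Ntrk2, -0.1881 to 0.0181 for Ntrk3, -0.1685 to 0.1406 for Gfra1, -0.1865 to 0.8035 for Ngfr and -0.5763 to 0.0197 for Bdnf. Against Saline-Heroin they were -0.1268 to 0.0225 for Ntrk2, -0.1705 to 0.4612 for Gfra1, -0.2657 to 1.0960 for Ngfr, -0.1295 to 0.3401 for Bdnf, -0.5646 to 0.0079 for Ret and -0.4922 to 0.2182 for Gdnf. In Heroin-SA they were -0.0503 to 0.4553 for Gfra1 and -0.3433 to 0.4816 for Gdnf. Between the saline controls they were -0.1218 to 0.7032 for Gdnf and -0.7428 to 0.1942 for Ntf3. For LPS the range was -0.0601 to 0.0190 for Ntrk2, for heroin -0.0870 to 0.0269 for Ntrk3 and -0.1867 to 0.1119 for Bdnf, and for the interaction -0.1791 to 0.0071 for Ntrk2, -0.0946 to 0.4779 for Ret and -0.9897 to 0.4443 for Ntf3.

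Each group held 4 libraries, so a p by permutation cannot go below 0.0286, and p-values measure the spread between these rats. Ntf3 and Gdnf had few reads, so only large changes in them were detectable at this depth.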
